A study of Mus musculus with 4 samples.

Results

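Leptomeningeal fibroblasts, the connective tissue cells of the pia and arachnoid, were picked out of 4 mouse brain single-nucleus RNA libraries by their transcripts. A nucleus was a member when it held at least 500 unique molecular identifiers (UMIs, 1 per captured transcript), at least 300 genes and no more than 5% mitochondrial UMIs, when at least 3 of 9 genes (Slc6a13, Slc6a20a, Dcn, Col1a2, Col3a1, Ranbp3l, Cped1, Bnc2 and Colec12) were detected and together made up at least 0.3% of its UMIs, and when it held at most 1 UMI of the neuronal genes Slc17a7, Gad1 and Gad2. The rule found 159 of the 50595 nuclei that passed the first 3 limits, or 0.314% of them, with 27 in the anaesthetised methanol library, 39 in the post-mortem methanol library, 49 in the anaesthetised unfixed library and 44 in the post-mortem unfixed library. The mice were wild-type C57BL/6, 10 weeks old, and their brains, with the cerebellum removed, were rinsed and frozen on dry ice. It was taken either by craniotomy under isoflurane (called in vivo in the labels and anaesthetised here) or post-mortem, after cervical dislocation, and the extracted nuclei were either held in 80% methanol at -20 °C or left unfixed. Each of the 4 combinations was 1 library, made with a droplet kit that reads the 3′ end of transcripts. A ratio between libraries therefore compares 2 libraries and not 2 conditions, it carries no test, and harvest cannot be told apart from differences between animals or tissue pieces. Where the 4 libraries are used together, as in fibroblasts against other nuclei, the p-values rest on a spread between these 4 libraries. The test draws much of that spread from all tested genes together. The very small p-values against all other nuclei rest almost wholly on that shared estimate and do not measure a gene's own spread.

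The leptomeninges wrap the brain and line the space that holds cerebrospinal fluid. Their fibroblasts lay down the collagens and laminins of the pial basement membrane, secrete proteins such as prostaglandin D synthase into the fluid, and make retinoic acid. Fibroblasts of the arachnoid barrier and pia also carry carriers for organic anions, amino acids and GABA, which move solutes between the fluid, the blood and the tissue.

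Fibroblast nuclei were shallow. Their median was 2087 UMIs (95% interval from ranks 1211 to 2525) in the anaesthetised methanol library, 1712 (1373 to 2179) in the post-mortem methanol library, 1081 (911 to 1312) in the anaesthetised unfixed library and 1709 (1332 to 2145) in the post-mortem unfixed library, against 8404, 6558, 3216 and 4029 UMIs in all other nuclei of the same 4 libraries. The vascular nuclei compared below held 15606 UMIs in 11 nuclei, 44713 in 38, 49466 in 37 and 54901 in 46, in the same order. Low depth was thus not particular to fibroblasts. The members of a library held 63960 to 86908 UMIs in all, beside 63993053 to 82282359 UMIs in its other nuclei. Thinned to 1000 UMIs each, with 5, 5, 19 and 7 shallower nuclei left out in the same order, they held a median of 676.5, 683, 731.5 and 734 genes. Scrublet called 15 of the 159 a doublet, and 6319 of all 50595 nuclei. No member's barcode was a member in any other library, and 2 members had a barcode that also occurred in another library.

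**Figure D1:**
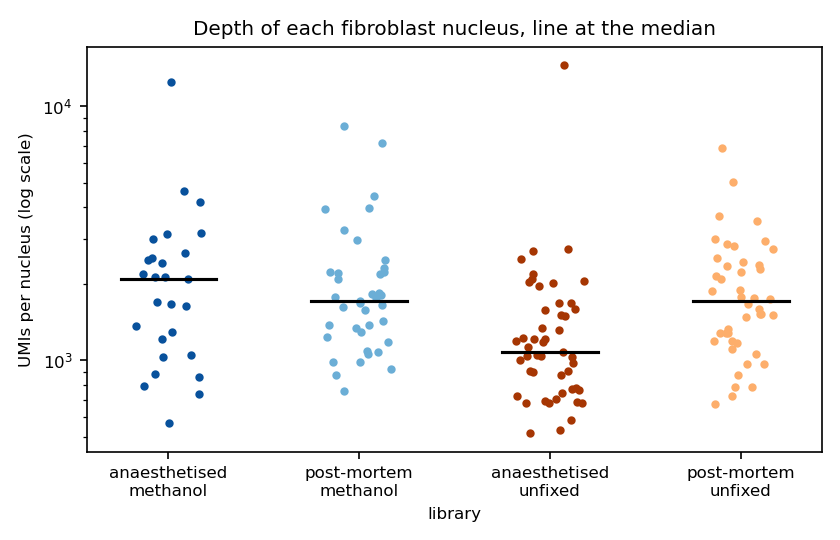
UMIs per fibroblast nucleus (log scale) in each of the 4 libraries, 1 point per nucleus with a line at the median. The anaesthetised unfixed library has the lowest median (1081 UMIs) and also the deepest nucleus (14488 UMIs).

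The rule genes chose the nuclei, so their levels are a description. The median member had 5 of the 9 genes and 1.03% of its UMIs in them, 36 members had exactly 3, and 1 had all 9. The members nearest the threshold held 0.314% and 0.320% of their UMIs in the rule genes, and the nuclei just outside it 0.296% and 0.284%. Slc6a20a, an amino acid carrier, had a level of 2752 CPM in the anaesthetised methanol library, 1699.5 CPM in the post-mortem methanol library, 1908 CPM in the anaesthetised unfixed library and 2083 CPM in the post-mortem unfixed library, where CPM is a gene's share of the members' summed UMIs scaled to a total of 1000000. Ranbp3l, which encodes a nuclear export factor, had 2611 CPM in the anaesthetised methanol library, 2127 CPM in the post-mortem methanol library, 2580.2 CPM in the anaesthetised unfixed library and 1933 CPM in the post-mortem unfixed library. Slc6a13, a GABA carrier, had 1016 CPM in the anaesthetised methanol library, 1082 CPM in the post-mortem methanol library, 833 CPM in the anaesthetised unfixed library and 828 CPM in the post-mortem unfixed library and was detected in 57.1 to 70.4% of members, against 0.118 to 0.26% of all other nuclei. Each of these 3 genes stayed within 2-fold across the libraries. Dcn, which encodes the proteoglycan decorin, had 422 CPM in the anaesthetised methanol library, 891 CPM in the post-mortem methanol library, 323 CPM in the anaesthetised unfixed library and 161 CPM in the post-mortem unfixed library, highest in the post-mortem methanol library, and Col3a1, a fibrillar collagen, had no more than 13 UMIs in any library. Cped1 had 1563 to 1973 CPM across the libraries, Colec12 1059 to 1679.8 CPM, Bnc2 242 to 1219.5 CPM and Col1a2 242 to 713 CPM.

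The label was set beside 20 fibroblast markers outside the rule, from a list chosen with earlier results of these data known. All 20 were higher in the 159 nuclei than in all other nuclei at an adjusted p under 0.05 and 2-fold or more in edgeR's quasi-likelihood test over the 4 libraries, where 7.87% of the 17876 tested genes were called higher. A marker nearly absent elsewhere passed the filter on low counts only through the fibroblasts. This count is therefore a description and does not test the label. Against vascular nuclei, chosen by markers as described below, 4 of the 6 tested were called higher, where 9.24% of tested genes were. Against astrocytes 9 of 10 were, where 15.8% of tested genes were. All 8 mural and 7 of the 8 endothelial markers were also called higher in members than in all other nuclei. That comparison therefore does not set fibroblasts apart from vascular cells. The label did not hold for every nucleus, however. Clustering the 159 nuclei gave 6 groups, all with nuclei from all 4 libraries. The first, of 56 nuclei, was led by Aox3, Vcam1, Itih5, Cemip and Pdgfra, and another, of 45 nuclei, by Nnat, Sphk1, Trpm3, Kcnj13 and Aldh1a2. A cluster of 20 nuclei was led by Adamtsl3, Kcnk5, Slc26a7, Prg4 and Slc47a1 and was given no name. Of its nuclei, 1 held Slc6a13, 1 held Slc6a20a and 2 held Ranbp3l, while all 20 held the rule genes Cped1 and Bnc2. A mural-like cluster of 12 nuclei was led by Slc38a11 and Atp13a5, had 7 of 8 mural markers raised, and held Slc6a20a in all 12 and Ranbp3l in none. A cluster of 15 nuclei was led by neuronal genes and 1 of 11 nuclei by oligodendrocyte genes, and these clusters held 13 of the 15 called doublets. Leaving out these last 3 clusters, called doublets and nuclei with 3 or more endothelial markers left 118 nuclei, a choice made after seeing the data, and some results are also given for these nuclei alone.

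**Figure D2:**
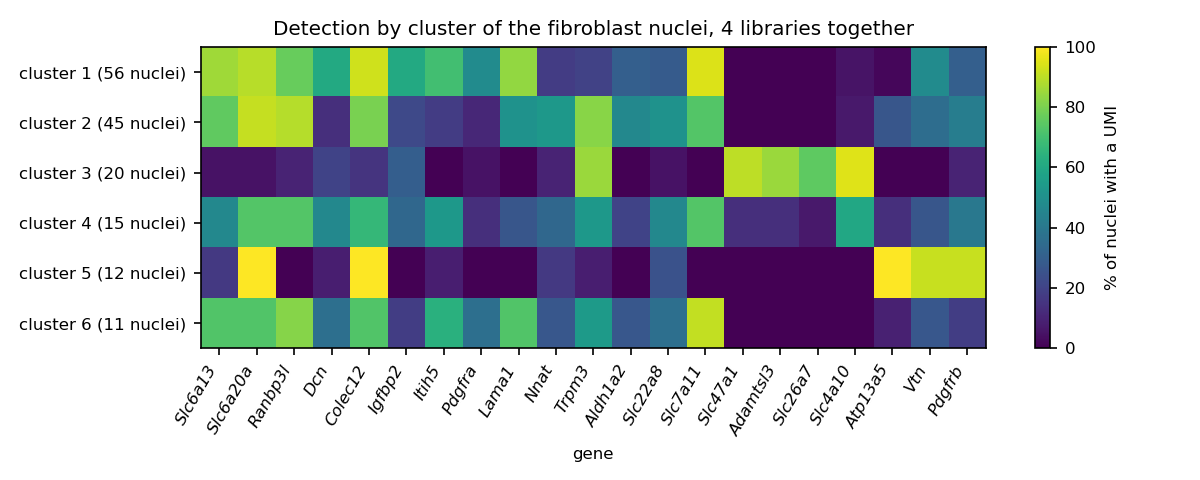
Share of nuclei with at least 1 UMI (colour, %) of 21 genes in the 6 clusters of the 159 fibroblast nuclei, 4 libraries together. Clusters 1, 2, 4 and 6 share Slc6a13, Slc6a20a, Ranbp3l and Slc7a11, which are next to absent in cluster 3, and cluster 5 has Slc6a20a with the mural genes Atp13a5, Vtn and Pdgfrb.

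Markers of other cells were measured in the summed members of each library. The 8 mural markers summed to 900.4 to 3043 CPM, against 16.3 to 24.5 CPM in all other nuclei, and all 8 were detected. The 8 endothelial markers summed to 344 CPM in the anaesthetised methanol library, 273 CPM in the post-mortem methanol library, 1935 CPM in the anaesthetised unfixed library and 219 CPM in the post-mortem unfixed library. Of the 144 such UMIs in the anaesthetised unfixed library, 116 lay in 1 nucleus of 14488 UMIs, which had 7 of the 8 endothelial markers and 8 of the 9 rule genes, was not called a doublet, and supplied 19.5% of that library's fibroblast UMIs. Choroid plexus markers summed to 11.5 to 190.2 CPM with 2 of 6 at 0, ependymal markers to 0 to 71.3 CPM with 4 of 6 at 0, and perivascular macrophage markers to 0 to 108 CPM with 1 of 6 at 0. The 9 neuronal markers summed to 1355 to 2048 CPM, against 6415 to 7403 CPM in all other nuclei. Oligodendrocyte markers summed to 1876 CPM in the post-mortem unfixed library, against 941 CPM in its other nuclei. In the remaining libraries they summed to 403 to 749 CPM, against 777 to 1094 CPM. Olfactory ensheathing markers summed to 944 to 2376 CPM, against 182 to 242 CPM, with 1 of 5 tested called higher. Astrocyte markers summed to 606 to 860 CPM, against 592 to 781 CPM.

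Genes of transport proteins were examined first. These 3 carriers are shown by their promoters because they span the range of this group, one with many UMIs (Slc7a11), one with few UMIs elsewhere (Slc22a6) and a rule gene (Slc6a13). Each window runs from 250 bases before to 50 after the start site in RefSeq (GRCm38.p6), printed 5′ to 3′ on the gene's strand: Slc7a11 at chr3:50443564-50443863, minus strand, Slc22a6 at chr19:8617746-8618045, plus strand, and Slc6a13 at chr6:121300038-121300337, plus strand, which is 1 of 3 listed windows. Capitals mark matches on either strand to a forkhead motif (TGTTTAC), a T-box motif (GGTGTGA) and a TEAD motif (CATTCC, or GGAATG on the other strand), families with members expressed here.
Slc7a11: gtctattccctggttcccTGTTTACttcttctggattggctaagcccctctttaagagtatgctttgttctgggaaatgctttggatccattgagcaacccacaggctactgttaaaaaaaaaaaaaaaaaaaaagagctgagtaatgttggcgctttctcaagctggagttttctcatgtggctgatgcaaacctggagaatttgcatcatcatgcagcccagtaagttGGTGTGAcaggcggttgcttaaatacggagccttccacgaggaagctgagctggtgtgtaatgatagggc
Slc22a6: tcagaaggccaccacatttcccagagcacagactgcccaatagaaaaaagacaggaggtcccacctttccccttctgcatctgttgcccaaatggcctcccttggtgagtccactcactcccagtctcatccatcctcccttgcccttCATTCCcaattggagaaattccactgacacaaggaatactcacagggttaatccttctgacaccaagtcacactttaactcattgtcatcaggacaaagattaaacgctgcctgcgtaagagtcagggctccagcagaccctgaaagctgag
Slc6a13: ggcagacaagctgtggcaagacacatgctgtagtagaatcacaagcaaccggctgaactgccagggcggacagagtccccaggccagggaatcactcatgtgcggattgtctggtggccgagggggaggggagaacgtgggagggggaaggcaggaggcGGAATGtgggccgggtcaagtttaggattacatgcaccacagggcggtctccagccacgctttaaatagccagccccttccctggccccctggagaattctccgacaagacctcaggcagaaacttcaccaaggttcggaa
The Slc7a11 window held a forkhead match that begins 232 bases before the start and a T-box match that begins 20 bases before it, the Slc22a6 window a TEAD match 102 bases before it, and the Slc6a13 window a TEAD match 91 bases before it. Of 32851 listed windows, 3.65% held the forkhead, 3.98% the T-box and 14.7% the TEAD motif, and no matches overlapped. A match is a description of the letters and not of binding. Of the 21 genes of the rule and of the leading genes below, 14 had an entry.

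Of the 33 genes on a list of organic ion and amino acid carriers, 32 passed the filter on low counts, 21 were called higher in fibroblasts than in all other nuclei and 3 lower, with a median log2 fold change of 3.15, where the median over all tested genes was -0.56. Of all tested genes, 7.87% were called higher and 13.3% lower. A gene absent elsewhere passed that filter only through the fibroblasts, so such counts are descriptions. Slc7a11, the cystine/glutamate exchanger, had a level of 4112 CPM in the anaesthetised methanol library, 2294 CPM in the post-mortem methanol library, 2997 CPM in the anaesthetised unfixed library and 2002 CPM in the post-mortem unfixed library, and it averaged 2851 ± 938 CPM in fibroblasts and 9.32 ± 0.728 CPM in all other nuclei (SD, n = 4 libraries; log2 fold change 7.57 ± 0.28 (SE), edgeR adjusted p = 3.28e-151). Its fibroblast values lay above those of other nuclei in all 4 libraries, and it was detected in 18 of 27, 26 of 39, 35 of 49 and 28 of 44 nuclei. Slc22a6, the organic anion transporter OAT1, had 13, 29, 8 and 6 UMIs, in 9, 18, 8 and 6 nuclei in the same order, against a level of 0.0153 to 0.156 CPM in all other nuclei (log2 fold change 10.94 ± 0.66, edgeR adjusted p = 4.41e-59). Slc22a8, the related transporter OAT3, averaged 315 ± 86 CPM, against 0.492 ± 0.201 CPM in all other nuclei (8.71 ± 0.42). Among the list members with the most UMIs, Slc38a2, a neutral amino acid carrier, Slc1a3, a glutamate carrier (4.01 ± 0.24), and Slc4a10, a sodium bicarbonate carrier (1.12 ± 0.23), were called higher. Of the Slc4a10 UMIs, 306 lay in the unnamed cluster of 20 nuclei (5629 CPM), while the clusters of 56 and 45 nuclei had 45.1 and 45.2 CPM, against 242 to 386 CPM in all other nuclei. The 3 carriers called lower were Slc7a14, Slc9a9 and Slc35f1. Slc22a2 (9.41 ± 0.68), an organic cation transporter, the dicarboxylate carrier Slc13a3 (7.27 ± 0.42), the sulphate carrier Slc13a4 (6.89 ± 0.31) and the betaine and GABA carrier Slc6a12 (9.90 ± 0.74) were called higher as well, with total UMIs of 23, 84, 112 and 19 over the 4 libraries.

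Some of these carriers are neighbours in the genome. Slc6a13 (chromosome 6, 121300227 to 121337733, plus strand, mm10) and Slc6a12 (121343076 to 121365775, plus strand) are 5342 bases apart in GENCODE with no protein-coding gene between them. Slc22a8 (chromosome 19, 8591254 to 8611835) and Slc22a6 (8618039 to 8628299), both on the plus strand, are 6203 bases apart, likewise with none between. Vascular nuclei held no UMI of Slc22a6 and 367 ± 191 CPM of Slc22a8, whose level in fibroblasts was not called different from theirs (log2 fold change -0.14 ± 0.38, edgeR adjusted p = 0.855). Slc47a1, a multidrug and toxin extrusion carrier, had 43, 39, 7 and 70 UMIs from 5, 7, 1 and 7 nuclei, of which the cluster of 20 without Slc6a13 held most (148 of 159 UMIs). Of 13 ABC transporters, all passed the filter, 8 were called higher and 2 lower, with the exporters Abcg2 (3.78 ± 0.32) and Abcb1a (6.59 ± 0.52) among the higher and Abca8b and Abcb1b the lower ones. Against vascular nuclei 0 of the 4 tested ABC transporters were higher and 3 were lower (Abcb1a, -2.11 ± 0.39, Abcg2, -1.82 ± 0.35, and Abcc4, -1.78 ± 0.35), where 9.24% of tested genes were called higher and 12.9% lower.

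Among the 12 genes with the largest log2 fold change against all other nuclei, of those called higher with at least 20 CPM in the members of every library, were Slc22a6, Aldh1a2, Foxc2, Tbx18, Slc6a12, Mpzl2, Tfap2a, Foxd1, Slc22a2, Prdm6 and Slc47a1. In all, 1406 genes (7.87%) were called higher and 2372 (13.3%) lower, so that 37.2% of the calls were higher, against 52.1% of them in DESeq2. These calls include genes of the neuronal, oligodendrocyte and mural-like nuclei among the members. Aldh1a2, the main retinoic acid synthesising enzyme of the meninges, had 625 CPM in the anaesthetised methanol library, 166 CPM in the post-mortem methanol library, 202 CPM in the anaesthetised unfixed library and 127 CPM in the post-mortem unfixed library, against 0.0729 to 0.173 CPM in all other nuclei (log2 fold change 10.26 ± 0.60, edgeR adjusted p = 3.8e-62). The anaesthetised methanol library stood above the other 3, which lay close together. Prdm6, a transcriptional regulator best known from smooth muscle, had a level of 161 to 261 CPM across the libraries, against 0.134 to 0.397 CPM, and Mpzl2, an adhesion protein of the myelin protein zero family, 53.8 to 143 CPM, against 0.0534 to 0.109 CPM.

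Transcription factors of mesenchyme and meninges were mostly higher. Of the 41 listed, 35 passed the filter, 27 were called higher than in all other nuclei and 0 lower, with a median log2 fold change of 4.23. Against vascular nuclei 3 of the 8 tested were higher and 1 was lower, and against astrocytes 11 of 16 were higher and 3 lower. Of all tested genes, 7.87% were called higher and 13.3% lower against all other nuclei. The shares were 9.24% and 12.9% against vascular nuclei and 15.8% and 20.3% against astrocytes, so the 1 and 3 lower factors are near these shares. Tbx18, a T-box factor of perivascular and meningeal mesenchyme, had 18, 15, 7 and 13 UMIs, and averaged 176 ± 78.6 CPM, against 0.113 ± 0.0667 CPM in all other nuclei (SD, n = 4; 9.98 ± 0.61, edgeR adjusted p = 1.12e-57). Foxc1, the forkhead factor required for meningeal development, had 4, 5, 5 and 4 UMIs (7.12 ± 0.70), Foxc2 4, 5, 2 and 7 (10.09 ± 0.77) and Foxd1 10, 14, 6 and 7 (9.45 ± 0.61). The AP-2 factor Tfap2a (9.55 ± 0.82) and the transcriptional cofactor Eya2 (6.64 ± 0.29) were also higher, and Tead1, which binds the TEAD motif, less so (1.82 ± 0.30, edgeR adjusted p = 1.11e-08). The list members with the most UMIs, Foxp1 (0.60 ± 0.22) and Foxp2 (0.56 ± 0.23), are also neuronal factors and were not called.

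**Figure D3:**
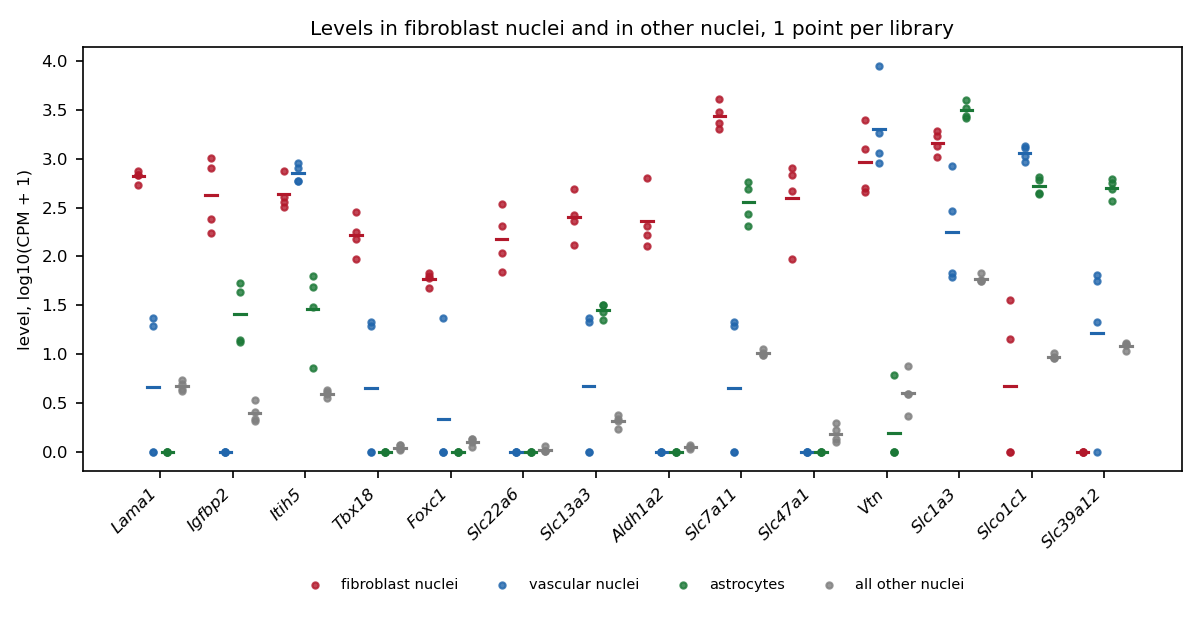
Levels (log10 of CPM + 1) of 14 genes in fibroblast nuclei, vascular nuclei, astrocytes and all other nuclei, 1 point per library with a line at the mean of the 4 libraries. Lama1, Igfbp2, Tbx18, Slc22a6, Aldh1a2, Slc7a11 and Slc47a1 are higher in fibroblasts in all 4 libraries, Vtn overlaps with vascular nuclei, Slco1c1 is higher in vascular nuclei and astrocytes, and Slc39a12 is higher in astrocytes.

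Many matrix genes were higher too, at modest counts, where 7.87% of all tested genes were called higher and 13.3% lower. Of 27 collagens outside the rule, all passed the filter, 17 were called higher and 1 lower, with a median log2 fold change of 2.16. Col4a6 (8.07 ± 0.45) and Col4a5 (6.68 ± 0.39), paired chains of basement membrane collagen, were called higher, Col25a1 (0.13 ± 0.25), a transmembrane collagen of neurons, was not, and Col9a3 was the 1 called lower. Col1a1, the partner chain of the rule gene Col1a2 in fibrillar collagen I, had 7, 22, 3 and 9 UMIs (6.94 ± 0.61, edgeR adjusted p = 3.21e-28). Of 16 laminins and basement membrane genes, 10 were called higher and 1, Lama3, lower. Against vascular nuclei 1 of the 5 tested was higher and 1 lower, and against astrocytes 3 of 5 were higher and 0 lower. Over all tested genes the higher and lower shares were 9.24% and 12.9% against vascular nuclei, and 15.8% and 20.3% against astrocytes. Lama1, the laminin chain of the pial basement membrane, had 532 CPM in the anaesthetised methanol library, 749 CPM in the post-mortem methanol library, 685 CPM in the anaesthetised unfixed library and 679 CPM in the post-mortem unfixed library, against 3.2 to 4.46 CPM in all other nuclei, a narrow spread in both. Of 10 small leucine-rich proteoglycans, 9 passed the filter and all 9 were called higher, among them Fmod (8.91 ± 0.60), Bgn (8.12 ± 0.60) and Ogn (7.47 ± 0.63). Of 26 elastic fibre and matrix glycoprotein genes, 25 passed, 14 were called higher and 2 lower, with Efemp1 (5.49 ± 0.28) and Svep1 (7.05 ± 0.52) among the higher and Vcan and Matn2 the lower ones. The 10 pial-type genes gave 7 higher of 9 tested, the 13 arachnoid-type genes 8 of 10, the 10 dural-type genes 4 of 9 and the 12 perivascular fibroblast-type genes 6 of 9, with 0 lower in each.

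Genes of signalling and of the fluid were measured next. Of 21 secreted and barrier fluid proteins, all passed the filter and 16 were called higher than in all other nuclei. Against vascular nuclei 3 of the 13 tested were higher and 1 was lower, and against astrocytes 10 of 15 were higher and 3 lower. Of all tested genes, 7.87% were called higher and 13.3% lower against all other nuclei. The shares were 9.24% and 12.9% against vascular nuclei, and 15.8% and 20.3% against astrocytes. Ptgds, prostaglandin D synthase, had 20482 CPM in the anaesthetised methanol library, 17067 CPM in the post-mortem methanol library, 13573 CPM in the anaesthetised unfixed library and 3440.4 CPM in the post-mortem unfixed library, against 126 to 279 CPM in all other nuclei (log2 fold change 5.41 ± 0.29, edgeR adjusted p = 2.05e-72). In the anaesthetised unfixed library 747 of its 1010 UMIs came from the 1 nucleus with the endothelial markers, and without that nucleus the level there was 4389 CPM. Of the 11 genes of the insulin-like growth factor axis, 7 were called higher and 0 lower, among them the binding protein Igfbp2 (7.70 ± 0.29) and Igfbp7 (3.87 ± 0.38). Against vascular nuclei 1 of its 4 tested genes was higher (Igfbp2) and 3 were lower (Igf1r, Insr and Igfbp7). Of 15 retinoic acid pathway genes 14 passed, with 7 higher and 2, Rarb and Rxrg, lower. The BMP and TGF-beta list gave 11 higher, Bmp6 among them (6.06 ± 0.26), and 1 lower (Bmpr1b) of 22 tested, and against vascular nuclei 2 higher (Bmp6 and Tgfbr3) and 4 lower (Bmpr2, Tgfb2, Eng and Id1) of 8. The Wnt list gave 10 higher, Wnt6 among them (7.54 ± 0.63), and 1 lower (Lgr5) of 19. The list of other growth factor ligands and receptors gave 8 higher, among them Pdgfrb (5.61 ± 0.33) and Egfr (3.46 ± 0.28), and 5 lower (Pdgfc, Ntrk2, Ntrk3, Gfra1 and Kitl) of 21 tested. Immediate early genes, which respond to stimulation and handling, gave 13 higher and 0 lower of 20 tested.

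The nearest neighbours in the tissue were compared in the same way. Vascular nuclei (endothelial and mural, chosen by 16 markers that were then left untested) numbered 11, 38, 37 and 46 in the 4 libraries in the order above, so that only 1071 genes could be tested. Of these, 99 (9.24%) were called higher in fibroblasts and 138 (12.9%) lower. The 6 genes leading upward were Adam12, Igfbp2, Adamtsl3, Eya2, Slc7a11 and Efemp1. Adam12, a membrane metalloprotease, averaged 944 ± 241 CPM in fibroblasts and had no UMI in vascular nuclei, so it was at least 50.7-fold higher (limit of 3 counts over the 4 libraries), and Igfbp2, also at 0 in vascular nuclei, at least 30.0-fold. Slc7a11 had 2002 to 4112 CPM in fibroblasts, against 0 to 20.2 CPM in vascular nuclei (log2 fold change 7.60 ± 0.65, edgeR adjusted p = 0.000499). The 6 leading downward were Slco1c1, Slc7a5, Ly6c1, Slc2a1, Cyyr1 and St8sia4. Slco1c1, the thyroxine carrier of brain endothelium, averaged 12 ± 16.3 CPM in fibroblasts and 1151 ± 194 CPM in vascular nuclei (-6.22 ± 0.67, adjusted p = 0.000552), and the glucose carrier Slc2a1 94.3 ± 136 and 2098 ± 1085 CPM (-4.78 ± 0.91). Of the 29 fibroblast UMIs of Slc2a1, 22 lay in the 1 nucleus with endothelial markers.

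Astrocytes, which meet the fibroblasts at the pial surface, were compared last. Of 2627 tested genes, 414 (15.8%) were called higher in fibroblasts and 534 (20.3%) lower than in 116, 162, 83 and 90 astrocytes. Slc1a3 was called lower than in astrocytes, with 1047 to 1908 CPM in fibroblasts, against 2619 to 3968 CPM there (-1.22 ± 0.25, edgeR adjusted p = 0.0011). Slc7a11 was called higher in fibroblasts (2.77 ± 0.29, adjusted p = 5.64e-06). The 6 leading upward were Mgp, Lama1, Slc47a1, Aox3, Vtn and Aldh1a2. Astrocytes held no UMI of Lama1, Mgp, Slc47a1, Aox3 and Aldh1a2, which were at least 242, 209, 186, 152 and 93.4-fold higher in fibroblasts. The 6 leading downward, Slc39a12, Arhgef26, Slc6a11, Itih3, Acsbg1 and Etnppl, had no UMI in any fibroblast library, which made them at least 28.9 to 55.5-fold lower. Slc6a11, the astrocyte GABA carrier, was thus at 0 in nuclei that were chosen in part by another GABA carrier, Slc6a13.

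The fibroblast share of nuclei did not tell the libraries apart. It was 0.353% (Clopper-Pearson 95% interval 0.233 to 0.513) in the anaesthetised methanol library, 0.361% (0.257 to 0.494) in the post-mortem methanol library, 0.274% (0.203 to 0.363) in the anaesthetised unfixed library and 0.308% (0.224 to 0.413) in the post-mortem unfixed library. The ratio of shares, methanol over unfixed, was 1.29 (exact conditional interval 0.773 to 2.10) in the anaesthetised pair and 1.17 (0.743 to 1.85) in the post-mortem pair. Anaesthetised over post-mortem, it was 0.977 (0.575 to 1.64) in the methanol pair and 0.892 (0.581 to 1.37) in the unfixed pair. Every interval held 1, and they cover counting error only. At 1000 UMIs or more, the share in the anaesthetised unfixed library was 0.201%, and 19 of its 49 members were shallower than that.

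Within fibroblasts, genes were then set side by side between libraries, as ratios of CPM with 0.5 counts added, for the 1118 genes with at least 50 UMIs over the 4 libraries. After methanol, 15 genes (1.34%) were at least 2-fold higher in both pairs and 11 (0.984%) at least 2-fold lower, and in the summed other nuclei 1 of the 15 and 1 of the 11 were. In the 118 nuclei without other cell types, where 536 genes were measured, 17 were higher and 13 lower, of which 8 were among the 15 and 2 among the 11. Several of the 15 encode secreted proteins. Igfbp2 had 797 CPM in the anaesthetised methanol library, against 242 CPM in the anaesthetised unfixed library, and 1010.2 CPM in the post-mortem methanol library, against 173 CPM in the post-mortem unfixed library. Its ratio was log2 1.70 (95% interval 0.92 to 2.58) in the anaesthetised pair and 2.51 (1.75 to 3.45) in the post-mortem pair, and it had a UMI in 17 of 27 and 22 of 39 methanol nuclei, against 6 of 49 and 12 of 44 unfixed nuclei. Of the 18 UMIs in the anaesthetised unfixed library, 13 lay in its deepest nucleus, and without it the ratio in that pair was 3.13. Thinned to 1000 UMIs, 11 of 22 and 15 of 34 methanol nuclei had a UMI of it, against 4 of 30 and 6 of 37 unfixed nuclei. The same ratios in all other nuclei were 1.15 and 0.43, where 0.376 to 1.68% of nuclei had a UMI. Vtn, vitronectin, had 81 UMIs in the anaesthetised methanol library, against 34 in its unfixed partner, and 208 in the post-mortem methanol library, against 43. Its ratio was log2 1.46 (95% interval 0.88 to 2.09) in the anaesthetised pair and 2.31 (1.84 to 2.83) in the post-mortem pair, and in the anaesthetised pair it was 2.30 without that nucleus, which held 19 of the 34 UMIs. Vtn was the 1 gene of the 15 that was 2-fold higher in all other nuclei as well, with ratios of 1.10 and 1.21. Vtn is also a mural marker, 148 of its 366 UMIs lay in the mural-like cluster, and with the 118 nuclei alone the ratios were 1.60 and 2.01.

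Serping1, the C1 inhibitor, had 17 UMIs in the anaesthetised methanol library, against 7 in the anaesthetised unfixed library, and 37 in the post-mortem methanol library, against 8 in the post-mortem unfixed library. Its ratio was log2 1.44 (95% interval 0.16 to 3.01) in the anaesthetised pair and 2.19 (1.13 to 3.57) in the post-mortem pair. Mgp, matrix Gla protein, had 30 UMIs in the anaesthetised methanol library, against 15 in the anaesthetised unfixed library, and 118 in the post-mortem methanol library, against 16 in the post-mortem unfixed library, or log2 1.19 (95% interval 0.28 to 2.22) in the anaesthetised pair and 2.89 (2.17 to 3.78) in the post-mortem pair. Of the 15 Mgp UMIs in the anaesthetised unfixed library, 12 lay in its deepest nucleus, and without it the ratio in that pair was 3.03. Nnat, which encodes the small membrane protein neuronatin, had 299 UMIs in the anaesthetised methanol library, against 40 in the anaesthetised unfixed library, and 139 in the post-mortem methanol library, against 41 in the post-mortem unfixed library, at ratios of 3.10 and 1.80. The nuclei with a UMI of it numbered 7 in the anaesthetised methanol library, against 13 in the anaesthetised unfixed library, and 14 in the post-mortem methanol library, against 12 in the post-mortem unfixed library, so the ratios lie in UMIs per positive nucleus. A value can rest on 1 nucleus: of the 37 Prg4 UMIs in the post-mortem methanol library, 34 did, and of 36 Fxyd5 UMIs there 22 did. In the anaesthetised pair Prg4, the joint lubricant proteoglycan, was at least 3.49-fold higher. The unfixed library there had 0 UMIs (limit of 3 counts in that library), and the Prg4 ratio in the post-mortem pair was log2 2.19. The unnamed cluster of 20 nuclei held 52 Prg4 UMIs, against 2 in the other members, and 96 of the 179 Mgp UMIs. The cluster of 45 nuclei led by Nnat held 459 Nnat UMIs, against 60 in the other members. How far cluster make-up carries these ratios was not tested.

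**Figure D4:**
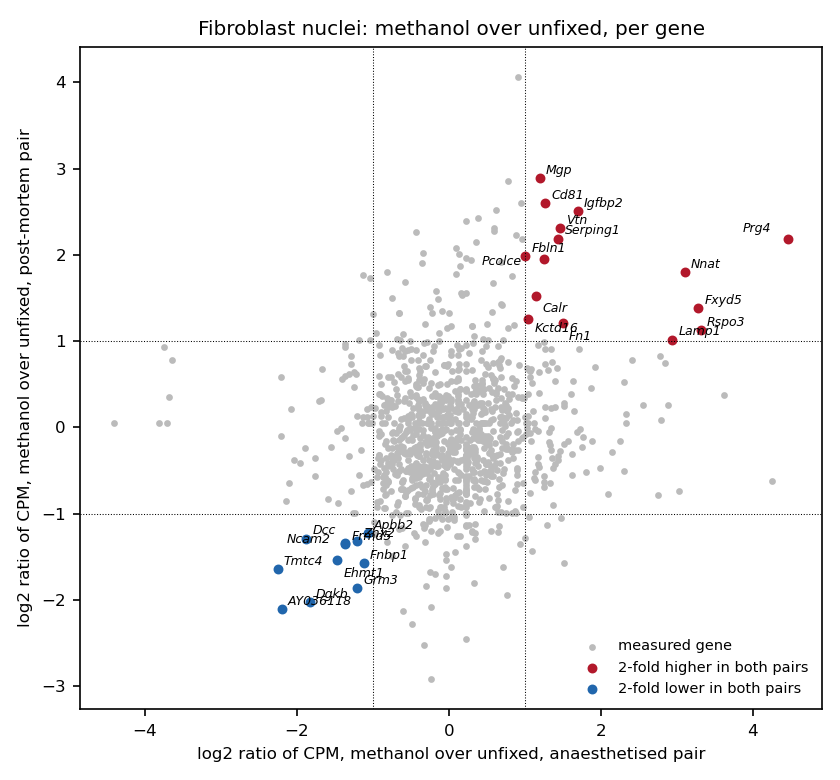
Log2 ratio of CPM, methanol over unfixed, of 1118 genes in fibroblast nuclei, in the anaesthetised pair (x axis) and the post-mortem pair (y axis), with dotted lines at 2-fold. The 15 genes higher in both pairs are at the upper right and include Igfbp2, Vtn, Serping1, Mgp and Nnat, and the 11 lower in both are at the lower left and include Tmtc4 and AY036118.

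Of 21 secreted and barrier fluid proteins, 16 had 50 UMIs. Of these, 12 had a positive ratio in the anaesthetised pair and 15 in the post-mortem pair, and 4 (Mgp, Vtn, Serping1 and Nnat) were 2-fold higher in both. The median ratio was 0.46 in the anaesthetised pair and 1.23 in the post-mortem pair, beside medians of -0.0034 and -0.12 over all measured genes. The list summed to 3.39% of fibroblast UMIs in the anaesthetised methanol library, against 2.07% in the anaesthetised unfixed library, and to 3.12% in the post-mortem methanol library, against 0.855% in the post-mortem unfixed library. In all other nuclei the sums were 0.106% against 0.0815%, and 0.153% against 0.110%. Nnat, on this list, encodes a membrane protein and not a secreted one. How far it carries the sums and the median was not tested. The value of the anaesthetised unfixed library rested on 1 nucleus: without the one that held endothelial markers, the median ratio of the list was 1.25 in the anaesthetised pair. Ptgds then had ratios of 2.22 in the anaesthetised pair and 2.31 in the post-mortem pair, where with that nucleus they were 0.59 (0.47 to 0.71) and 2.31 (2.13 to 2.50), and Apoe 1.67 and 1.88, where with it they were 0.15 and 1.88. Without that nucleus 26 genes stood 2-fold higher after methanol in both pairs, 12 of them among the 15. Whether depth, cluster make-up or fixation moved these values was not tested.

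Most measured carriers had a positive ratio as well. Of the 13 measured genes of the carrier list, 10 had one in the anaesthetised pair and 10 in the post-mortem pair. The medians were 0.50 and 0.36, beside -0.0034 and -0.12 over all measured genes. No difference between this list and the secreted proteins was tested. The summed list had a log2 ratio of 0.66 (95% interval 0.53 to 0.79) in the anaesthetised pair and 0.38 (0.26 to 0.50) in the post-mortem pair. In all other nuclei the same sums gave 0.084 and 0.16. Slc4a10 alone had ratios of 2.55 and 0.25, and Slc38a2, without the deepest nucleus of the anaesthetised unfixed library, 2.82 and 0.83. In the unnamed cluster of 20 nuclei lay 306 UMIs of Slc4a10 and 376 of Slc38a2. How far these genes carry the sums was not tested. Slc7a11 had ratios of log2 0.46 (95% interval 0.19 to 0.72) in the anaesthetised pair and 0.20 (-0.11 to 0.50) in the post-mortem pair. Slc6a20a and Ranbp3l, whose levels the rule used, differed between the libraries by less than 2-fold. Among the other rule genes, in the post-mortem pair Dcn had a log2 ratio of 2.43 and Col1a2 of 1.54, and in the anaesthetised pair 0.39 and 0.17. Since the rule used these genes, no more is read from them.

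**Figure D5:**
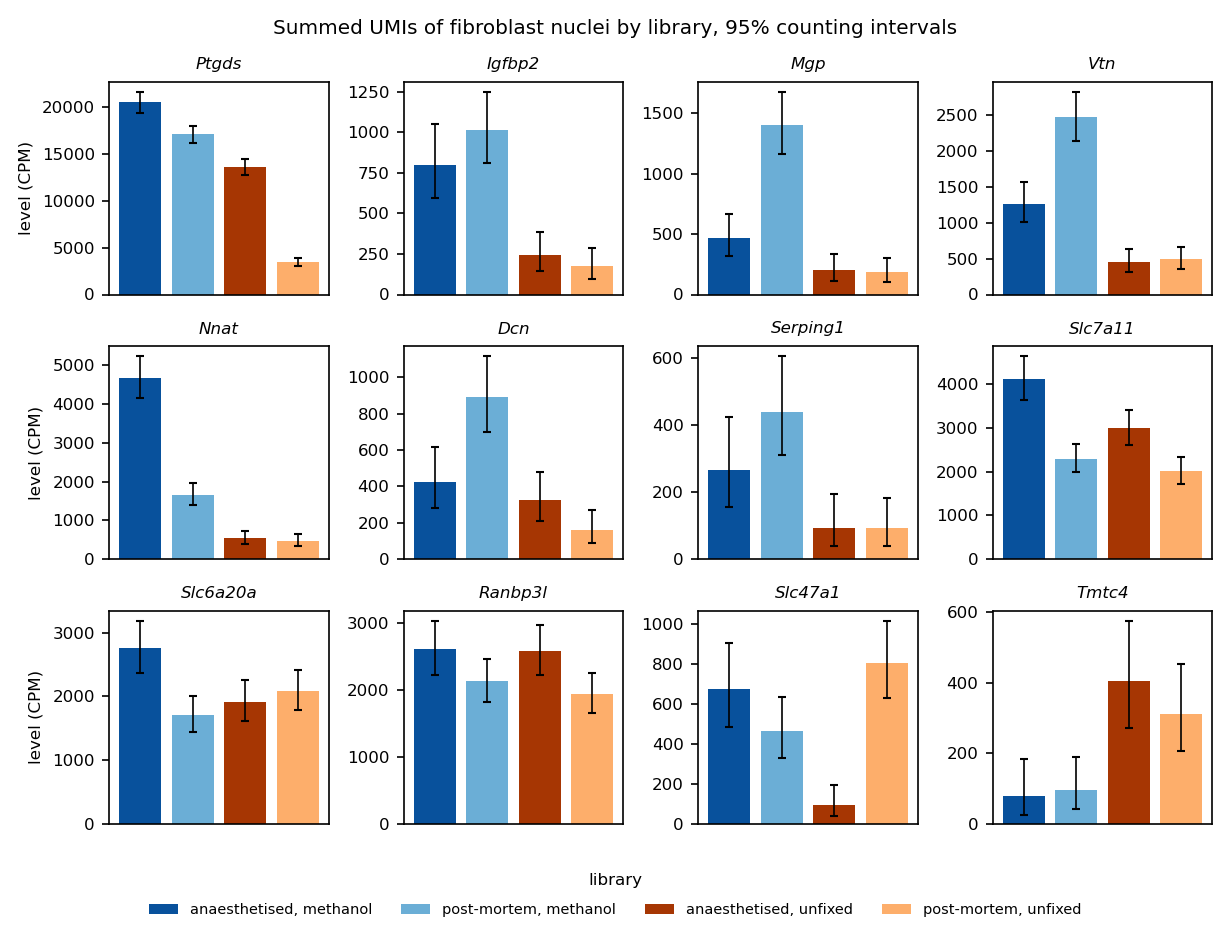
Levels (CPM of the summed UMIs of the fibroblast nuclei) of 12 genes in the 4 libraries, with exact Poisson 95% intervals that cover counting error only. Igfbp2, Mgp, Vtn, Nnat and Serping1 are higher in both methanol libraries than in both unfixed ones, Tmtc4 is lower in them, Slc6a20a and Ranbp3l stay within 2-fold, Slc47a1 is low in the anaesthetised unfixed library, and the Ptgds bar of that library holds 747 UMIs of 1 nucleus.

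Among the 11 genes lower after methanol in both pairs, Tmtc4, which encodes a mannosyltransferase of the endoplasmic reticulum, had 5 UMIs in 4 of 27 nuclei of the anaesthetised methanol library, against 30 in 23 of 49 nuclei of the anaesthetised unfixed library, and 8 in 6 of 39 nuclei of the post-mortem methanol library, against 27 in 20 of 44 nuclei of the post-mortem unfixed library. Its ratio was log2 -2.25 (95% interval -4.09 to -0.99) in the anaesthetised pair and -1.65 (-3.06 to -0.53) in the post-mortem pair, and the ratios in all other nuclei were -0.47 and -0.41. AY036118, a long non-coding RNA, had ratios of -2.20 and -2.10 in fibroblasts and -2.26 and -1.997 in all other nuclei, and was the only gene of the 11 that was 2-fold lower there in both pairs. Dgkb, a diacylglycerol kinase, Frmd5 and Ncam2, an adhesion molecule, were lower in fibroblasts than in all other nuclei (-3.38 ± 0.28, -2.31 ± 0.27 and -3.22 ± 0.28), and Ehmt1, a histone methyltransferase, was not called (-0.65 ± 0.27, edgeR adjusted p = 0.0663). The cluster led by oligodendrocyte genes held 26 Frmd5 UMIs, against 25 in the other members. It also held 31 UMIs of Fnbp1, another of the 11 genes, against 48 in the other members. Dgkb had 3 UMIs in the anaesthetised methanol library, against 14 in the anaesthetised unfixed library, and 7 in the post-mortem methanol library, against 31 in the post-mortem unfixed library. Of the 11, 7 overlap a gene on the other strand, Tmtc4, AY036118 and Dgkb among them, and 8 of the 15 higher genes do, Nnat and Prg4 among them. The strand setting of the counting is not given in the sources used here, so reads of such genes and of their partners cannot be told apart.

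By harvest, 17 genes (1.52%) were at least 2-fold higher in the anaesthetised library of both pairs and 14 (1.25%) at least 2-fold lower. Haemoglobin genes led the higher ones. Hba-a1, alpha globin, had 17 UMIs in the anaesthetised methanol library and 267 in the anaesthetised unfixed library, against 0 in both post-mortem libraries, which made it at least 7.45-fold and 104-fold higher (limit of 3 counts per library). Hbb-bs, beta globin, had 24 UMIs in the anaesthetised methanol library, against 2 in the post-mortem methanol library, and 357 in the anaesthetised unfixed library, against 1 in the post-mortem unfixed library. They came from 5 nuclei in each of the anaesthetised libraries, and 1 nucleus of the unfixed one held 241. Hba-a2 and Hbb-bt were among the 17 as well. In all other nuclei Hbb-bs was higher in both pairs as well, with log2 ratios of 1.88 and 2.58, and 1.57 to 8.49% of those nuclei had a UMI of it. Robo2 and Opcml, genes of neuronal guidance and adhesion, were also among the 17, with Robo2 at log2 1.93 (95% interval 0.91 to 3.18) in the methanol pair and 2.60 (1.32 to 4.44) in the unfixed pair, and at 1.79 and 0.93 in the 118 nuclei alone. Of the 96 Opcml UMIs in the anaesthetised methanol library, 91 lay in 1 nucleus.

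Among the 14 lower genes were the mitochondrially encoded mt-Nd2 and mt-Co2. For mt-Co2 the counts were 22 UMIs in the anaesthetised methanol library, against 82 in the post-mortem methanol library, and 20 in the anaesthetised unfixed library, against 60 in the post-mortem unfixed library. The ratio of mt-Co2 was log2 -1.48 (95% interval -2.25 to -0.81) in the methanol pair and -1.34 (-2.17 to -0.61) in the unfixed pair, and the ratios in all other nuclei were -0.16 and -0.0022. Fn1, fibronectin, had 8 UMIs in the anaesthetised methanol library, against 32 in the post-mortem methanol library, and 3 in the anaesthetised unfixed library, against 14 in the post-mortem unfixed library. Thsd7a, a thrombospondin repeat protein, had 2 UMIs in the anaesthetised methanol library, against 24 in the post-mortem methanol library, and 4 in the anaesthetised unfixed library, against 30 in the post-mortem unfixed library. Sox2ot, a long non-coding RNA of neural cells, was lower as well, at log2 -2.57 and -1.24, but in the 118 nuclei alone its ratios were 0.39 and 1.28. In those 118 nuclei, 8 genes were higher and 6 lower, of which 4 were among the 17 and 4 among the 14. The immediate early genes summed to 2314 CPM in the anaesthetised methanol library, against 1688 CPM in the post-mortem methanol library, and to 1102 CPM in the anaesthetised unfixed library, against 1323 CPM in the post-mortem unfixed library, so the sum was higher in the anaesthetised library of 1 pair and lower in that of the other.

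The anaesthetised unfixed library stood apart in a set of genes that the unnamed cluster of 20 nuclei shares. It had Slc47a1 in 1 of 49 nuclei (2.04%, Clopper-Pearson interval 0.0517 to 10.9), against 7 of 44 (15.9%, 6.64 to 30.1) in the post-mortem unfixed library, while the anaesthetised methanol library had 5 of 27 (18.5%, 6.30 to 38.1) and the post-mortem methanol library 7 of 39 (17.9%, 7.54 to 33.5). Thinned to 1000 UMIs, the counts were 1 of 30, against 7 of 37, and 5 of 22 and 4 of 34. Adamtsl3, a secreted ADAMTS-like protein, was in 1 nucleus there and in 5 to 7 in the others, and Slc26a7, an anion exchanger, in 1 against 4 to 7. Slc4a10 had 1689 CPM in the anaesthetised methanol library, 1414 CPM in the post-mortem methanol library, 282 CPM in the anaesthetised unfixed library and 1185 CPM in the post-mortem unfixed library. Slc38a2 had 2533 CPM in the anaesthetised methanol library, 2603 CPM in the post-mortem methanol library, 363 CPM in the anaesthetised unfixed library and 1461 CPM in the post-mortem unfixed library, with 14 of 49 nuclei positive in the low library and 18 of 27, 26 of 39 and 26 of 44 in the others. These 5 genes were brought together after their values were seen, and 4 of them define that cluster, so their low values together are not independent. Fewer nuclei of this kind and less of these RNAs per nucleus cannot be told apart in summed counts, and the number of such nuclei is too small to compare the libraries.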

How the data were processed

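Single-nucleus 3′ RNA libraries (1 per group, 4 in all) were analysed from the deposited counts, which are UMI counts per gene and barcode that the authors made. The genome build was mm10, as the submitters' processing notes give it. The read aligner, the cell caller and strand setting are not given in the sources used here. From these counts, nuclei were chosen by the stated rule, and Scrublet (scanpy 1.11.5, expected rate 6%) called doublets, which were kept and left out in an alternative. UMIs were summed per library over members and over other nuclei and tested with edgeR 4.0.16 (quasi-likelihood, TMM, filterByExpr, library as a block, Benjamini-Hochberg over all tested genes, R 4.3.3), and genes used by a rule were not tested. The block follows the design, since both sums come from 1 library. A gene was called at an adjusted p under 0.05 and 2-fold or more. DESeq2 1.42.0 was an alternative. Between libraries, ratios of CPM with 0.5 counts added and exact conditional 95% intervals were computed for genes with 50 UMIs or more, and intervals cover counting error only, as does the limit of 3 counts for a 0. Vascular nuclei (at least 3 markers and 0.3% of UMIs) and astrocytes (0.5%) were chosen by markers. Of 32285 gene identifiers, 32235 matched the mm10 annotation (GENCODE). Clusters came from Leiden clustering (resolution 0.4, 800 variable genes, 10 components). Named were the rule genes, the 5 genes of highest level of each list described, the 12 leading genes against all other nuclei, the 6 leading genes per direction in the other comparisons (at least 20 CPM) and exceptions to a count, and some genes this rule names are not reported here. Further genes, named after their values were seen, were Slc22a8, Slc13a3, Slc13a4, Col1a1, Ogn, Foxc1, Tead1, Slc26a7, the cluster-leading genes and Apoe. The scripts were tested on simulated counts. Members and lists were chosen with earlier results of these data known.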

Additional observations from a re-analysis of the deposited data

Results flagged for a closer look

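In 4 genes measured in fibroblasts the anaesthetised library was higher in one pair and lower in the other, and these differences between the pairs were not tested. Bnc2, a rule gene, had a log2 ratio, anaesthetised over post-mortem, of 0.61 in the methanol pair and -1.17 in the unfixed pair. Col25a1 had 1.08 and -2.16, with 24 of 47 UMIs in 1 nucleus of the anaesthetised methanol library and 20 of 23 in 1 nucleus of the post-mortem unfixed library. Tshz2 had -1.04 and 0.93. Neat1, a nuclear-retained RNA, had 0.69 and -0.72. The unnamed cluster of 20 nuclei held 146 of the 211 Bnc2 UMIs, and 91 Col25a1 UMIs against 12 in the other members.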

How the results depend on the processing

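Between libraries there was 1 library per group, members were shallow, and UMIs clumped in few nuclei, so that counting intervals understate the error. In the tests, 386 of 386 refits of 36 named fold changes kept their direction and stayed under the threshold, with a highest adjusted p of 0.0418. Named genes include those chosen for the largest fold changes in these data, and the refits used the same counts or parts of them. That they kept their direction was therefore likely beforehand. The text also gives fold changes that were not among the 36. Of 334 recomputed library ratios 316 kept their value within the error, 17 moved and 1 reversed: Opcml, anaesthetised over post-mortem in the methanol pair, was -0.81 with doublets left out. Of 280 list medians 271 did not move. Without the library block, which pairs both sums of a library, 1416 genes were higher and 2291 lower than in all other nuclei, 414 and 528 against astrocytes, and 117 and 154 against vascular nuclei. Leaving out 1 library gave 1113 to 1245 higher and 1915 to 2111 lower against all other nuclei, 415 to 571 and 504 to 660 against astrocytes, and 62 to 132 and 80 to 163 against vascular nuclei, with 62 and 80 without the post-mortem unfixed library. DESeq2 called 1475 lower than in all other nuclei. The median log2 fold change over all tested genes was -0.56 with TMM and -0.38 with RLE factors, whose calls were 45.2% higher. With no filter on low counts, 889 were higher and 1274 lower against astrocytes, and 333 and 220 against vascular nuclei. The fibroblast share was 0.203% in the post-mortem unfixed library with other cell types left out, and in the anaesthetised unfixed library 0.196% with at least 4 rule genes and 0.201% at 1000 UMIs. Genes apart after methanol were 74 higher and 102 lower at 20 UMIs, 29 and 33 with nuclei weighted equally, and 7 and 4 with opposite-strand overlaps left out, 23 lower at a rule-gene share of 0.5%, and 26 higher without the deepest nucleus. Genes apart by harvest were 71 higher and 64 lower at 20 UMIs, 8 and 7 with doublets left out, 7 and 6 with overlaps left out, 8 and 6 with other cell types left out, and 5 higher at a share of 0.5%. Settings that leave out genes or nuclei test fewer, and otherwise the cause was not tested. Leaving out other cell types or the deepest nucleus was chosen after seeing the data.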
